A study of Mus musculus with 9 samples.

Results

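Transcripts of 10 genes for neutrophil granule proteins, chosen by symbol from the 31053 genes of the filtered matrix, were followed in single cells of mouse bone marrow. The genes were Mpo, Elane, Prtn3 and Ctsg (azurophil granules), Ltf, Camp, Ngp and Lcn2 (specific granules), and Mmp8 and Mmp9 (collagenase and gelatinase). Droplet 3' tag sequencing was performed on cells flushed from the femurs of female NZB, NZW and NZBWF1 mice aged 9 to 10 weeks, with 3 mice per strain and 1 library per mouse. NZB and NZW are the inbred parents of the NZBWF1 hybrid, which develops a lupus-like disease with age. No treatment distinguished the groups, and the strain was the only labelled difference.

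A neutrophil fills its granules while it matures in the marrow, and each granule type holds what the cell happens to make at that time. Azurophil proteins are made first, in promyelocytes, specific granule proteins follow in myelocytes and metamyelocytes, and gelatinase comes last. The mature cell carries the stored proteins into blood with much of their transcription already shut down, so the transcripts of a marrow cell tell its stage.

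Members are scattered over 5 chromosomes, but some are neighbours (GRCm38/mm10). Prtn3 (chr10:79874476-79883174) and Elane (chr10:79886247-79888215) were next to each other on the plus strand of chromosome 10, with 3072 bases between them. Camp, Ngp and Ltf lay within 1195389 bases of chromosome 9, which also carries Mmp8 (chr9:7558456-7568485), so 4 members shared that chromosome. The promoters of Elane, Prtn3, Ngp and Lcn2 are printed because they set the neighbouring early pair beside the 2 specific granule genes called between the parents within a gate. Each runs from 250 bases before to 50 bases after the RefSeq start (GRCm38.p6), is read on the gene's own strand, and carries in capitals every match to GAGGAAG (an ETS or PU.1 type core) or TTNNGCAA (a C/EBP type core) on either strand. Elane is chr10:79886062-79886361 on the plus strand, Prtn3 chr10:79879417-79879716 on the plus strand, Ngp chr9:110419558-110419857 on the plus strand and Lcn2 chr2:32387690-32387989 on the minus strand.
Elane: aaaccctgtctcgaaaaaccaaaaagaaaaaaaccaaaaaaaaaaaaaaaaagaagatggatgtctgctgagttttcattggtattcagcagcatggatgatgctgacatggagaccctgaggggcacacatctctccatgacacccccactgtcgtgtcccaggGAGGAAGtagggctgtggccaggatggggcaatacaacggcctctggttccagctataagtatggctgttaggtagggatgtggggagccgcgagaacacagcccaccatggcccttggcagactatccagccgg
Prtn3: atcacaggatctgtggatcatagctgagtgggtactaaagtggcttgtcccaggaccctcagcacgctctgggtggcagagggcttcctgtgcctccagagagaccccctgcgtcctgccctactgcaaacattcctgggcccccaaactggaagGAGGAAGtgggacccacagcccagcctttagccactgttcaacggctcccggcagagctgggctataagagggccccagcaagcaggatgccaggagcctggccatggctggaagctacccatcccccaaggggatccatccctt
Ngp: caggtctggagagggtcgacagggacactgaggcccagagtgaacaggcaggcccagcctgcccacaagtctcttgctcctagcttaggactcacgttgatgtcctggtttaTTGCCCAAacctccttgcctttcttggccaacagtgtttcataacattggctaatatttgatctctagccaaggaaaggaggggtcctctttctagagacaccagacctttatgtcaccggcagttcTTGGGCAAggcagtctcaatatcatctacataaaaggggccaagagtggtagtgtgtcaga
Lcn2: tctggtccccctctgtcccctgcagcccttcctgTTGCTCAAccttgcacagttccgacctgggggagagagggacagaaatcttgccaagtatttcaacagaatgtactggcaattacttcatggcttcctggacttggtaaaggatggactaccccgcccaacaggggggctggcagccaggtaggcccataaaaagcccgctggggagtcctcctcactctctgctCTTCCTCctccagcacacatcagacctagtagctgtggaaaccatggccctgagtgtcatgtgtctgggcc
The RefSeq start of Prtn3 lies inside the longer GENCODE span given above. The table held a promoter for 9 members, and GAGGAAG was found in 6 of them and TTNNGCAA in 4. Of 32851 promoters of the same length, 13.6% held GAGGAAG and 10.8% held TTNNGCAA. All 4 azurophil promoters held GAGGAAG and none held TTNNGCAA. TATAAA, also searched on both strands, was found in 2 members and in 13.6% of all promoters, and no matches overlapped in a member. A match describes letters only.

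Cells were sorted by marker counts that used none of the 10 members. Neutrophil cells were taken as those whose S100a8 and S100a9 unique molecular identifiers (UMIs) came to at least 1.6% of the UMIs of all genes but the 10 members, and were divided into a dividing, an immature and a mature gate by cell cycle, immature (Fcnb, Cebpe, Ly6g and others) and mature (Retnlg, Cxcr2, Il1b and others) genes. The precursor gate took cells under that S100 limit with at least 3 UMIs of Ms4a3, a promyelocyte gene. The 4 neutrophil gates held 586 precursor, 3797 dividing, 4220 immature and 2763 mature cells of 39051 kept, with 15 to 133 precursor cells per mouse. Gfi1, a factor of early granulocytes that no gate used, fell from 96.7 CPM (UMIs of the gene per 1000000 UMIs of the gate in a mouse) in the precursor gate to 29.5, 12.9 and 6.10 along the order. Kept cells carried 8106539 to 18663189 UMIs per mouse. Libraries shared 170 barcodes, found in 0.876% of kept cells. Summed monocyte markers (5 genes) were between 38.3 and 127 CPM in the precursor gate and between 2.77 and 44.9 CPM in the other 3. Cells with 3 or more UMIs of these same genes had been left out of the 4 gates. Low sums were thus set by the gates and do not test their purity. Ly6g was higher and Itgb2l lower in NZB than in NZW in the S100-rich gates (1618 to 2236 against 855 to 1094 CPM for Ly6g), and both genes count toward the dividing and immature gates. Cd3d, a T-cell gene, was at 6.97 to 8.37 CPM in NZB in these gates. It was at 132 to 214 CPM in NZW and 86.7 to 137 in NZBWF1, and its part in the strain results was not tested. Chil3, another gate gene, had 0 UMIs in these data. The limits of the gates were set after depth and marker counts were seen, without reading the members.

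**Figure D1:**
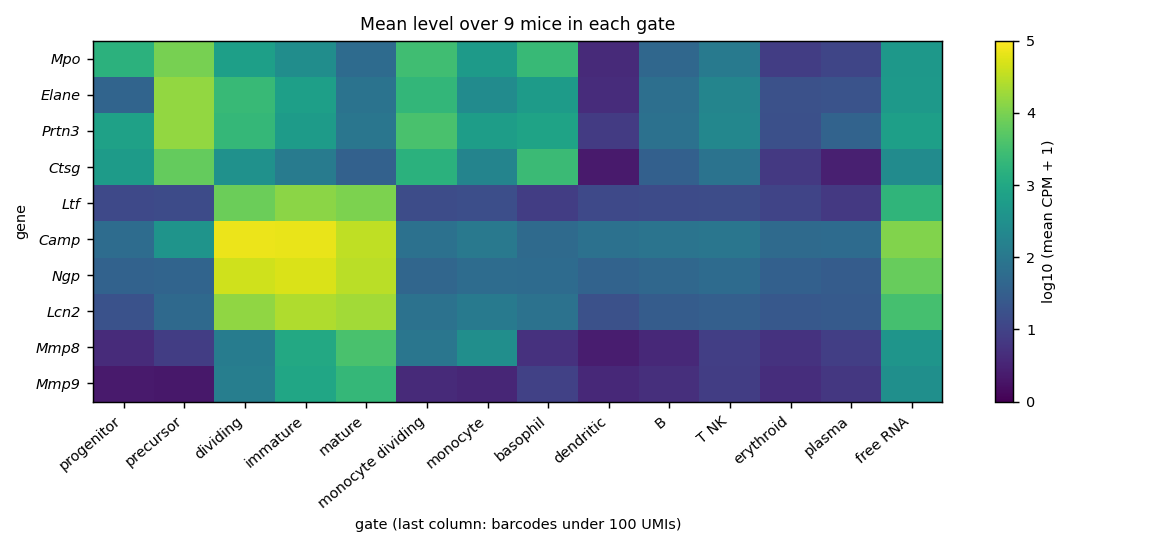
Mean level of the 10 granule genes (rows) over 9 mice in 13 gates and in barcodes under 100 UMIs (free RNA), as log10 of CPM + 1 (colour). Azurophil genes are brightest in the precursor gate, specific genes in the dividing to mature gates and Mmp8 and Mmp9 in the mature gate.

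The 3 groups followed each other along the gates, and by CPM each member peaked in the same gate in 9 of 9 mice. Mpo (myeloperoxidase), Elane (neutrophil elastase), Prtn3 (proteinase 3) and Ctsg (cathepsin G) were highest in precursor cells, with means over 9 mice of 9389, 15387, 15129 and 6457 CPM, and lowest in mature cells, with means of 54.4, 79.7, 90.7 and 34.7 CPM. Camp, the cathelicidin, peaked in dividing cells at 72058 CPM, close to 67479 CPM in immature cells with ranges that overlapped, and had 390 CPM in precursor cells. Ltf (lactoferrin), Ngp (neutrophilic granule protein) and Lcn2 (lipocalin 2, which binds bacterial siderophores) peaked in immature cells at 13600, 52696 and 25396 CPM. Mmp8, a collagenase, and Mmp9, a gelatinase, were highest in mature cells at 3689 and 2118 CPM and near 0 in precursor cells at 7.25 and 1.09 CPM. The 10 genes together made up 4.57% of all UMIs in precursor cells, 14.2% in dividing, 16.1% in immature and 10.1% in mature cells. Levels were not divided by transcript length, since 1 tag is taken near the 3' end.

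**Figure D2:**
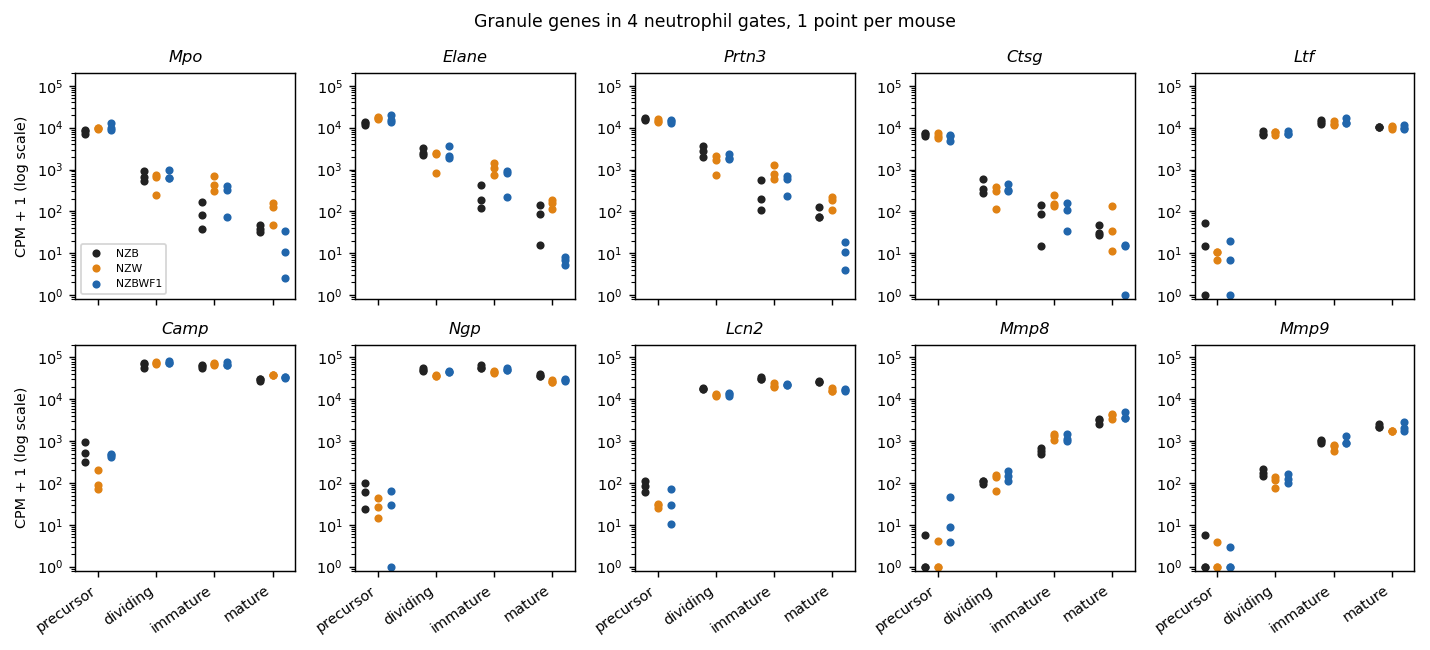
CPM + 1 (log axis) of each granule gene in the 4 neutrophil gates, 1 point per mouse and coloured by strain. The 4 azurophil genes fall from left to right, Ltf, Camp, Ngp and Lcn2 rise sharply after the precursor gate, and Mmp8 and Mmp9 climb to the mature gate.

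The steps were tested in 1 edgeR quasi-likelihood model with the mouse as a block and Benjamini-Hochberg adjustment. From the precursor to the dividing gate all 10 members passed, 6 up and 4 down, where 38.2% of tested genes rose and 34.7% fell. Ngp rose by 10.57 (SE 0.16) on the log2 scale, Ltf by 9.69, Lcn2 by 8.66 and Camp by 8.20, while Mpo fell by 3.22 (SE 0.36), Elane by 2.09, Prtn3 by 2.28 and Ctsg by 3.71. From the dividing to the immature gate 5 rose and 4 fell (background 31.2% and 34.6%). Camp was the exception, with 0.19 (SE 0.21, edgeR adjusted p 0.432). That sign is opposite to the order of its CPM means, and it turned to -0.09 without scaling factors, so which of the gates holds more Camp depended on the scaling. It also read 0.48 with mixed cells kept (adjusted p 0.022) and -0.92 at 2000 UMIs and 1000 genes (0.0302). From the immature to the mature gate only Mmp8 and Mmp9 rose, by 1.85 and 1.17, and the other 8 fell (background 19.9% and 22.9%). The size of the fall ranged from 0.40 for Lcn2 to 2.97 for Elane. The fall of Lcn2 lost its call without the mouse block (-0.36, edgeR adjusted p 0.138), that of Ctsg with stricter gates (-1.28, 0.144) and that of Camp at 2000 UMIs and 1000 genes (-0.30, 0.574).

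Directions at the last 2 steps changed with the limits on cells. With 2000 UMIs and 1000 genes the dividing, immature and mature gates kept 2571, 151 and 117 cells, and 7 of the 9 changes from dividing to immature turned round. Without scaling factors the median of all genes moved from 0.07 to -0.49 on the first step and from -0.06 to -0.34 on the second, and 29 of the 30 steps remained called.

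The 4 azurophil genes did not fall together. In log2 CPM per mouse, Elane fell least from precursor to dividing cells, with a mean of -2.78 (SD 0.66, n = 9 mice), then Prtn3 with -2.95 (SD 0.57), Mpo with -3.88 (SD 0.63) and Ctsg with -4.34 (SD 0.69). The fall of Elane was smaller than that of Mpo in 9 of 9 mice, by 1.11 (SD 0.16). All 6 pairs of genes differed in an exact sign permutation test over mice (two-sided, adjusted p 0.00586 for 4 pairs and 0.00781 for the other 2, smallest possible raw p 0.00391). The ratio of Elane to Mpo UMIs was 1.64 in precursor and 3.5 in dividing cells. The paired test was added after the values were seen.

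Ordering the precursor and dividing cells by their S100 share, which uses no member, separated the genes further. In cells with an S100 share of 0 to 0.2% Elane stood at 12310 CPM (mean of 8 mice with at least 10 cells) and Prtn3 at 12966. Both were higher at 0.8 to 1.6%, with 23247 and 21169 CPM (3 mice), while Mpo read 8982 and 9005 CPM and Ctsg 6446 and 6876. Above 1.6% all 4 were lower in each following range, and Mpo reached 117 CPM and Ctsg 27.3 CPM in cells over 20%, against 731 for Elane and 693 for Prtn3.

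Above an S100 share of 1.6% Camp stood at 4629, 19664, 60248 and 76159 CPM (means of 4 to 9 mice) where Ngp stood at 861, 5933, 16733 and 48866 CPM. Below that limit the Camp means of 97.6, 347 and 1292 CPM mixed strains that differed. The 1292 was the mean of 1 mouse per strain, with 1083 CPM in NZB, 144 in NZW and 2651 in NZBWF1, and Ngp averaged 48.1 CPM in the same mice. In the NZW mice Camp was 35.8, 62.5 and 107 CPM in the first range and 93.8, 54.6 and 64.8 in the second. Lcn2 and Ltf ran lower, at 2762 and 1225 CPM in the 10 to 20% range. These are levels in ranges and no test was run on them, and the mice that supplied 10 cells differ between ranges.

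**Figure D3:**
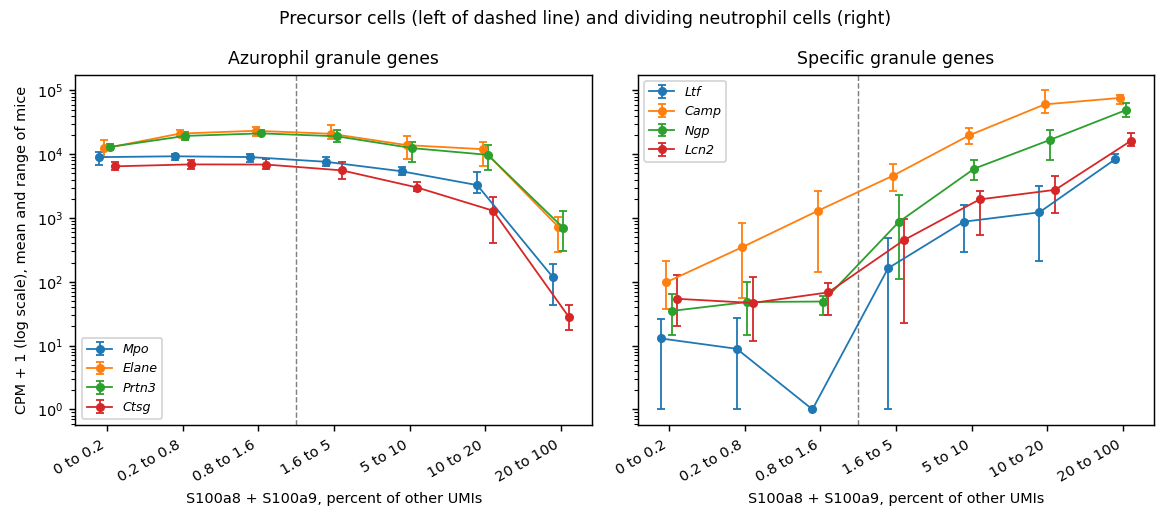
Mean CPM + 1 (log axis, bars: lowest and highest mouse) of the 4 azurophil and the 4 specific genes in ranges of S100 share, with precursor cells left of the dashed line. Elane and Prtn3 climb before they fall, Mpo and Ctsg stay level before they fall, and Camp lies above Ngp, Lcn2 and Ltf right of the line, while its bars left of the line span mice of different strains.

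Single cells carried both programmes mainly in the dividing gate. After thinning to 1000 UMIs, cells with at least 3 azurophil and 3 specific UMIs were 8.08% to 25.9% of dividing cells per mouse, 0% to 16.2% of precursor cells, and 0.221% to 5.26% of immature cells. In B cells, which should lack both, the share was 0 in 9 of 9 mice. B cells cannot show droplets that held a precursor and a later neutrophil cell. The part of such droplets was not tested, and no doublet caller was run. In the dividing gate 72.9% to 91.7% held specific UMIs alone.

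Azurophil transcripts in mature cells sat in very few cells. The mature gate held 6 to 32 cells with any azurophil UMI per mouse. In the NZB mice the highest cell carried 212 of 220, 37 of 89 and 227 of 240 azurophil UMIs, and in the NZW mice 194 of 408, 163 of 192 and 155 of 164. The NZBWF1 mice had 7, 32 and 29 such UMIs, with 1, 12 and 15 in the highest cell. The share in 1 cell thus ran from 14.3% to 96.4%.

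The strains were compared within each gate by edgeR on UMIs summed per mouse, over 37 tests of members in 4 gates (Ltf, Mmp8 and Mmp9 were too low in the precursor gate). Contrasts share mice. Markers of other cells, summed over 9 lists in 4 gates, did not overlap between the parents in 6 of 36 cases. No share over all genes was set beside this count. Cells with 3 or more UMIs of these same lists (5 for erythroid and plasma genes) had been left out. The sums are thus what remained under those limits. With 3 mice against 3, some cases without overlap arise by chance, and no test was run on the sums. The T and NK list (7 genes) left out Cd3d, which set the parents apart as given above. B markers (9 genes) were lower in NZB in precursor (38.1 to 42.8 against 43.3 to 76.0 CPM), dividing (7.26 to 9.82 against 18.0 to 27.3) and immature cells (3.89 to 7.38 against 14.6 to 17.4), and Pax5, Cd79a and Ms4a1 were at 0 in precursor cells. Macrophage markers (6 genes) were lower in NZB in precursor (31.2 to 43.1 against 50.6 to 74.5) and dividing cells (36.3 to 42.2 against 53.4 to 64.8), and plasma markers (2 genes) higher in precursor cells (10.7 to 15.6 against 0 to 9.99). Cells set aside for markers of another lineage were 11.1% to 15.4% of S100-rich cells in NZB, 15.2% to 25.3% in NZW and 14.7% to 29.5% in NZBWF1. The part of these differences in the strain results was not tested.

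Between the parents 12 tests passed, 9 higher in NZB and 3 lower, where 4.73% of all tests were higher and 4.39% lower. The 9 include Lcn2 in precursor cells, which passed the filter on low counts through the NZB mice and is given as a value only.

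In precursor cells Elane was lower in NZB, with 12610, 11617 and 13520 CPM against 18303, 16673 and 16381 in NZW. The groups did not overlap, and the log2 difference was -0.61 (SE 0.10, edgeR adjusted p 1.02e-06). Mpo stood at 8638, 7124 and 8308 CPM in NZB and 9666, 9536 and 9943 in NZW (log2 -0.44, SE 0.10, edgeR adjusted p 0.000798), a call that was lost without the second NZB mouse (adjusted p 0.0781) or without a filter on low genes (0.0775). Prtn3, next to Elane on the chromosome, did not follow it, with 15455 to 17046 CPM in NZB and 13855 to 16238 in NZW, ranges that overlapped.

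The median S100 share of precursor cells set the parents apart too, with 0.0386% to 0.0843% in NZB and 0.0968% to 0.169% in NZW, and Elane was higher at higher S100 shares. In cells with an S100 share of 0 to 0.2% Elane was at 9983, 9084 and 11911 CPM in NZB and 16397, 13273 and 13791 in NZW, which did not overlap. At 0.2 to 0.8% it was at 18780 to 20116 CPM in NZB and 19100 to 23946 in NZW, which overlapped. At 0.8 to 1.6% the values were 19224 to 22402 and 23588 to 26894 CPM, from 1 to 15 cells per mouse. Mpo at 0 to 0.2% was at 6880 to 8592 CPM in NZB and 9333 to 10724 in NZW, which did not overlap. In the other ranges the parents overlapped in Mpo. It was at 7999 to 9633 CPM in NZB and 8966 to 9940 in NZW at 0.2 to 0.8%. At 0.8 to 1.6% it was at 7446 to 11781 and 8070 to 10756 CPM. Prtn3 and Ctsg overlapped between the parents at 0 to 0.2% and were higher in NZB in the other ranges. At 0.2 to 0.8% Prtn3 was at 22121 to 25513 CPM in NZB and 16442 to 21002 in NZW, and Ctsg at 8100 to 8268 and 5912 to 7088. At 0.8 to 1.6% Prtn3 was at 23802 to 26232 and 19747 to 22571 CPM, and Ctsg at 8061 to 12167 and 5798 to 7834. No test was run on these ranges.

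Lcn2 and Ngp of the specific group were higher in NZB. Lcn2 was called in the dividing, immature and mature gates, and in the precursor gate only with a limit given below. In mature cells it stood at 26282, 26538 and 27363 CPM in NZB and 18832, 15558 and 16149 in NZW, groups that did not overlap (log2 0.83, SE 0.09, edgeR adjusted p 1.84e-07). The differences were 0.54 in dividing and 0.71 in immature cells. In precursor cells the fitted value was 1.56, from 15, 73 and 18 Lcn2 UMIs in NZB against 9, 9 and 8 in NZW and 1, 36 and 10 in NZBWF1. There 3 NZB, 0 NZW and 1 NZBWF1 mice reached the level of the filter (31.7 CPM, which is 10 counts at the median size of the sums), so this call supports nothing. It was lost without the second NZB mouse (adjusted p 0.0719) or with cells of mixed lineage kept (0.0929). Ngp was higher in NZB by 0.54, 0.56 and 0.64 in dividing, immature and mature cells, and in mature cells it read 35401, 35694 and 40106 CPM against 25677, 28568 and 26129. Camp and Ltf passed in no gate between the parents, and Camp was 27804 to 30225 CPM in mature NZB and 37765 to 38551 in mature NZW cells, ranges apart from each other with a fitted log2 difference of -0.21 (edgeR adjusted p 0.114). In mature cells the fitted values of Camp, Lcn2 and Ngp lay further toward NZB than their CPM. The fits use scaling factors that CPM lacks, and no fit within a gate was run without them. Ltf had differences of 0.02 to 0.28 in the 3 gates tested, and the widest 95% interval, in immature cells, ran from 0.04 to 0.52 (edgeR adjusted p 0.154).

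Mmp8 and Mmp9 moved in opposite directions. In immature cells Mmp8 was lower in NZB, with 589, 485 and 702 CPM against 1359, 1074 and 1510 in NZW (log2 -0.96, SE 0.14, edgeR adjusted p 6.16e-06), and the groups did not overlap. Mmp9 was higher in NZB, with 998, 918 and 1088 against 791, 597 and 746 CPM (log2 0.68, SE 0.13). In mature cells Mmp9 kept a difference of 0.58, a call lost without the first NZB mouse (edgeR adjusted p 0.0509) and by DESeq2 (0.0552), and Mmp8 did not pass at -0.22. Azurophil UMIs of the immature gate moved with these groups. They made up 0.0557%, 0.131% and 0.0277% of its UMIs in NZB, 0.181%, 0.245% and 0.361% in NZW and 0.202%, 0.198% and 0.0564% in NZBWF1, with no overlap of the parents. Cells with 10 or more azurophil UMIs were 11 of 1211 in NZB, 72 of 1700 in NZW and 23 of 1309 in NZBWF1, and their part in the immature differences of Mmp8, Mmp9, Lcn2 and Ngp was not tested. At 2000 UMIs and 1000 genes the mature calls of Lcn2, Ngp and Mmp9 and the immature call of Mmp8 between the parents were lost, and the immature differences of Lcn2, Ngp and Mmp9 turned round.

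**Figure D4:**
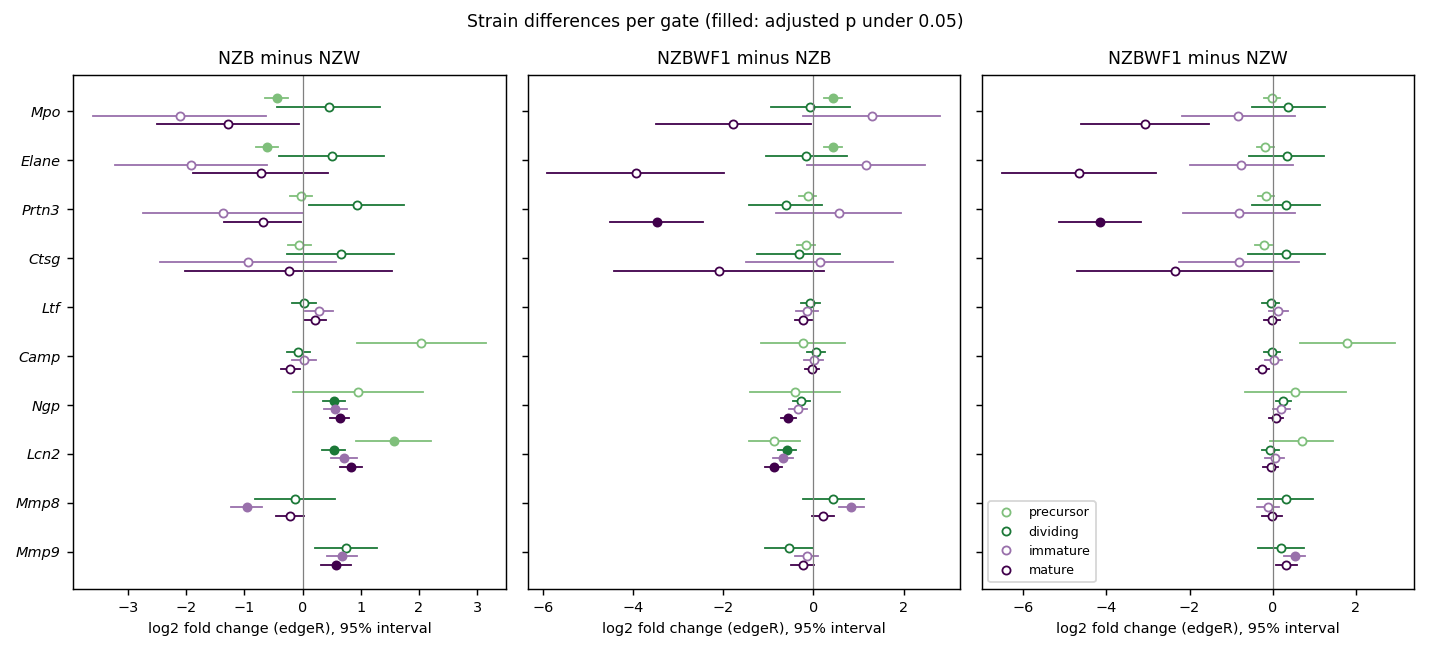
Log2 fold change (edgeR, 95% interval) of each granule gene in the 4 neutrophil gates for NZB minus NZW, NZBWF1 minus NZB and NZBWF1 minus NZW, filled where the adjusted p is under 0.05. Lcn2 and Ngp lie right of 0 in NZB against NZW, and the azurophil genes have wide intervals in the immature and mature gates.

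The hybrid was next set against each parent. The marker sums of other cells did not overlap between NZBWF1 and NZB in 7 of the 36 cases and between NZBWF1 and NZW in 3. These counts too have no share over all genes beside them, and the sums are again what remained under the limits on those lists. No test was run on them. B markers were higher in NZBWF1 than in NZB in precursor (57.2 to 74.2 CPM), dividing (12.1 to 19.5) and immature cells (12.3 to 26.6), and macrophage markers in dividing cells (52.6 to 72.4). In mature cells macrophage markers were at 53.0 to 73.5 CPM in NZBWF1, above both NZB (19.6 to 36.5) and NZW (30.4 to 52.6). In precursor cells T and NK markers were at 4.02 to 9.28 CPM in NZBWF1, 0 to 3.89 in NZB and 0 in NZW, and plasma markers were lower than in NZB. Basophil markers in dividing cells were at 2.19 to 2.52 CPM against 0 to 2.06 in NZW. The part of these differences in the results of the hybrid was not tested.

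Against NZB 8 of 37 tests passed, 3 higher and 5 lower (background 1.35% and 1.78%). Lcn2 was lower by 0.59, 0.67 and 0.88 in dividing, immature and mature cells, with 15644, 16279 and 17662 CPM in mature NZBWF1 cells, and Ngp was lower by 0.56 in mature cells. The Ngp call was lost at 500 UMIs and 250 genes (edgeR adjusted p 0.135) and at 2000 UMIs and 1000 genes (0.975), and at the latter Lcn2 turned round in immature cells and lost its call in mature cells (-0.44, adjusted p 0.975). Mmp8 was higher by 0.84 in immature cells, with 1471, 1025 and 1142 CPM, and kept its call in 22 of 22 alternatives. Its log2 difference ran from 0.71 to 2.28 over them. Mpo and Elane were higher than in NZB by 0.43 and 0.44 in precursor cells. Both calls were lost without the first NZBWF1 mouse (edgeR adjusted p 0.217 and 0.198), without the second NZB mouse (0.396 and 0.268), by DESeq2 (0.114 and 0.0872) and without a filter (0.533 and 0.459).

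Against NZW 2 of 37 tests passed, 1 in each direction (background 0.539% and 0.511%). Lcn2 differed from NZW by -0.05 (95% interval -0.25 to 0.15) in dividing, 0.05 (-0.17 to 0.27) in immature and -0.05 (-0.23 to 0.13) in mature cells. The higher value was that of Mmp9 in immature cells (0.53, edgeR adjusted p 0.0315), lost in 7 of 22 alternatives. These include leaving out the first NZB mouse (0.0625), the second or the third NZW mouse (0.344 and 0.171) or the first NZBWF1 mouse (0.304). Against the mean of the parents 2 passed, both lower (background 0.255% higher and 0.0331% lower): Lcn2 by 0.47 in mature cells (edgeR adjusted p 0.00178, lost in 6 of 22 alternatives, without the second NZBWF1 mouse 0.0663) and Prtn3 in mature cells by a fitted 3.82 (adjusted p 0.00988).

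Prtn3 in mature cells was also the remaining call against each parent, with fitted values of -3.47 against NZB and -4.16 against NZW. It rested on 2, 8 and 7 Prtn3 UMIs in the 3 NZBWF1 mice against 65, 45 and 91 in NZB and 143, 62 and 63 in NZW. The gene thus passed the filter on low counts through the mice of the parents, and it was left out of the test where at least 10 counts were asked of every mouse. Its calls, 1 of the 8 against NZB, 1 of the 2 against NZW and 1 of the 2 against the mean of the parents, are therefore given as values and support nothing. Cells with any Prtn3 UMI were 2, 7 and 6 in NZBWF1, 5, 18 and 7 in NZB, and 10, 4 and 4 in NZW, so the strains overlapped in cells while they did not in UMIs. The calls were lost with stricter gates (adjusted p 0.299 and 0.483), lower limits (0.107 and 0.197) and mixed cells kept (0.0579 and 0.0774). The call against the mean of the parents was lost under the same 3 settings (0.492, 0.282 and 0.118) and with the replicate number as a block (-3.82, edgeR adjusted p 0.0543). Without the third NZBWF1 mouse the edgeR adjusted p was 0.0721 against NZW and 0.125 against the mean of the parents.

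Camp differed between strains by stage. The strain difference in mature cells minus that in precursor cells, tested as an interaction in edgeR, was -2.22 (SE 0.27, adjusted p 1.47e-08) for NZB against NZW and -2.0 (SE 0.27, adjusted p 2.62e-06) for NZBWF1 against NZW, the only member called of 10 in each (background 1.93% and 0.099%). The other members had a larger SE. For NZB against NZW it was 0.35 to 0.73 for Lcn2, Ngp, Ltf and Prtn3. It was 0.78 to 3.17 for Elane, Mpo, Ctsg, Mmp8 and Mmp9. For NZBWF1 against NZW Elane read -4.46 (SE 1.24) and Prtn3 -3.91 (SE 1.07), larger than Camp and not called. A missing call thus does not show that a member kept its strain difference. Between NZBWF1 and NZB no member was called (background 0.272%, Camp 0.22). Neither was any in an added test of mature minus immature cells for NZB against NZW (background 0.111%). Camp in the precursor gate came to 935, 320 and 531 CPM in the NZB mice, to 86.6, 69.6 and 206 in the NZW mice and to 417, 482 and 461 in the NZBWF1 mice. The NZW mice lay below the others. Few cells held much of this Camp. The 5 highest cells of a strain held 34.6% of its precursor Camp UMIs in NZB, 44.4% in NZW and 38.3% in NZBWF1. In the first NZB mouse 14, 65 and 161 Camp UMIs came from 27, 5 and 5 cells with S100 shares of 0 to 0.2%, 0.2 to 0.8% and 0.8 to 1.6%. The fit of precursor cells alone gave 2.04 for NZB minus NZW and missed the threshold (edgeR adjusted p 0.083). The joint fit took a single spread per gene over all neutrophil gates. Its SE and p thus do not measure the spread of the precursor mice alone. With mixed cells kept both interactions were lost (adjusted p 0.0864 and 0.146), and that of NZBWF1 against NZW was lost at 2000 UMIs and 1000 genes (0.163). The precursor gate held 1365 cells with mixed cells kept, against 586 in the main setting.

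Values on stage, free RNA and depth stand beside that result. The precursor cells were split by S100 share into 3 ranges, with no test. At 0 to 0.2%, which held 389 of the 586 cells, the strains overlapped, with 72.4, 117 and 212 CPM of Camp in NZB, 35.8, 62.5 and 107 in NZW and 36.3, 113 and 60.9 in NZBWF1. At 0.2 to 0.8% Camp was at 1880, 827 and 2125 CPM in NZB, 449, 695 and 437 in NZBWF1 and 93.8, 54.6 and 64.8 in NZW, from 5 to 28 cells per mouse, with no overlap of NZW and the others. At 0.8 to 1.6% NZB and NZW overlapped again, with 5594, 1083 and 386 CPM in NZB, 551, 144 and 1096 in NZW and 1453, 2651 and 4035 in NZBWF1, from 1 to 15 cells per mouse. Camp UMIs in precursor cells were 8.37 times those of Ngp in NZB, 4.5 times in NZW and 10.6 times in NZBWF1, and 2.75 to 40 times in the mice with any Ngp UMI. The highest was the first NZB mouse, while the other 2 NZB mice were at 5.25 and 5.29. In B cells the ratio was 1.83 and in free RNA 1.67 over all mice. The median S100 share of precursor cells was 0.0386% to 0.0843% in NZB, 0.0968% to 0.169% in NZW and 0.0464% to 0.380% in NZBWF1. Median depth was 4924 to 6792 UMIs per cell in NZB and 3940 to 5534 in NZW, and its part was not tested. After thinning each cell to 1000 UMIs, 21.6% of NZB, 6.40% of NZW and 18.4% of NZBWF1 precursor cells held Camp (52.5%, 27.6% and 48.6% before thinning).

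Outside the neutrophil gates, Lcn2 set the strains apart in monocytes. The monocyte gates (Csf1r, F13a1, Ly86, Ccr2 and Ms4a6c) were fitted after their values were seen, with 9 members tested in each. In monocytes Lcn2 stood at 298, 367 and 177 CPM in NZB, 28.2, 29.1 and 29.6 in NZW and 28.4, 36.4 and 52.4 in NZBWF1, and the NZB mice lay apart. The log2 difference was 3.22 (SE 0.23, edgeR adjusted p 6.28e-14) for NZB against NZW and -2.76 for NZBWF1 against NZB (adjusted p 1.44e-11), while NZBWF1 minus NZW was 0.46 (95% interval -0.11 to 1.03). Over 15 alternatives the first ran from 2.96 to 6.94 and the second from -4.48 to -2.50, with both calls kept, so their size depended on the setting. Against the mean of the parents NZBWF1 had Lcn2 lower by 1.15 (SE 0.23, edgeR adjusted p 0.00462), 1 of 9 members called (background 0.489%). That call was lost with free RNA subtracted (adjusted p 0.923), with stricter gates (0.476) and without the second NZBWF1 mouse (0.146), which are 3 of 15 alternatives.

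B cells, which should lack Lcn2, give the level that free RNA leaves. Lcn2 was found in 28.8% of NZB monocytes, 5.15% of NZW and 6.98% of NZBWF1 monocytes, against 8.24%, 4.51% and 4.36% of B cells. Median depth was 2168 UMIs per cell in monocytes and 1548 in B cells of NZB, and 1692 and 1666 in those of NZW (means over mice). Thinned to 1000 UMIs, the shares of monocytes were 17.8%, 2.77% and 4.22%, and those of B cells 4.19%, 2.46% and 1.95%. The NZW share stayed near that of B cells and the NZB share lay well over it. The ratio of Lcn2 to Ngp UMIs was 3.75 in NZB monocytes and 0.853 in NZB B cells. In NZW it was 0.624 and 0.492. The monocyte gate also differed between strains in cells with other members. Azurophil UMIs were found in 55.1% of NZB, 20.7% of NZW and 21.6% of NZBWF1 monocytes (38.9%, 14.6% and 14.9% after thinning), while their share of the UMIs of the gate overlapped at 0.115% to 0.176%, 0.130% to 0.245% and 0.0302% to 0.219%. Specific UMIs, Lcn2 included, were found in 51.2%, 28.2% and 33.0% of the same cells (29.9%, 17.8% and 21.03% after thinning). Their part in the monocyte results was not tested.

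Mmp8 was called in monocytes as well. It read 410, 470 and 422 CPM in NZB, 296, 164 and 168 in NZW and 334, 232 and 205 in NZBWF1 (NZB against NZW 1.05, SE 0.21, edgeR adjusted p 0.00206), higher in NZB where immature neutrophils had it lower. Its monocyte UMIs were 57.0 times what free RNA would give, and 0.756% of B cells held it. The NZB against NZW call was lost at 2000 UMIs and 1000 genes (edgeR adjusted p 0.105). Lcn2 and Mmp8 made 2 of 9 called in monocytes for NZB against NZW, and the same 2 for NZBWF1 against NZB (background 11.8% and 5.19%). The Mmp8 difference between NZBWF1 and NZB lost its call in 6 of 15 alternatives, among them without any 1 of the NZB mice (edgeR adjusted p 0.103, 0.178 and 0.112) and without the second or the third NZBWF1 mouse (0.106 and 0.0563). In dividing monocytes 2 were called for NZB against NZW, Lcn2 and Prtn3 (1.90 and 0.57), and 1 for NZBWF1 against NZB, Prtn3 (-0.36; background 14.0% and 4.47%). Lcn2 there lost its call in 7 of 15 alternatives, namely without the third NZB mouse (edgeR adjusted p 0.095) or without any 1 of the NZW or NZBWF1 mice (0.0652 to 0.138). Prtn3 between NZBWF1 and NZB lost its call in 9 of 15, among them without any 1 mouse other than the second and the third NZB mouse (0.056 to 0.161).

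**Figure D5:**
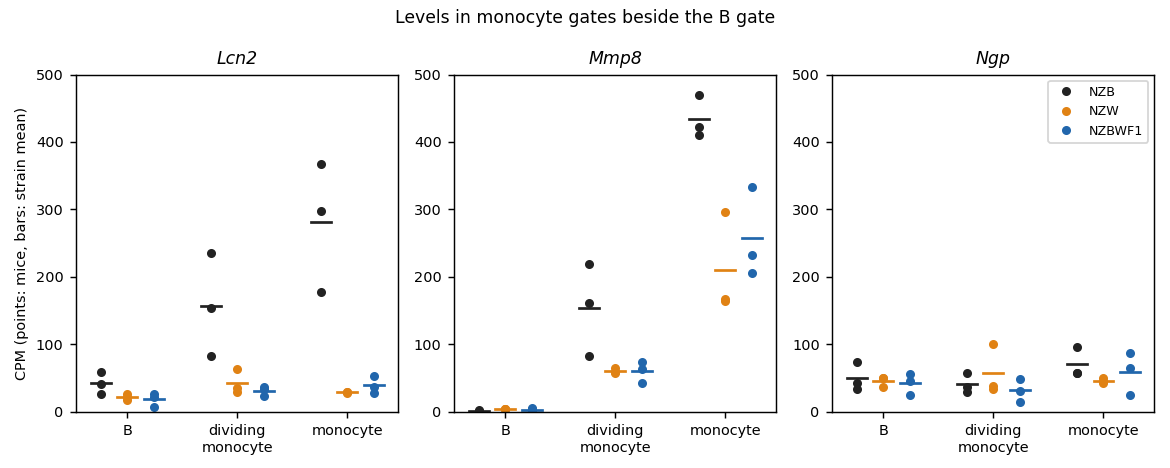
CPM of Lcn2, Mmp8 and Ngp in the B, dividing monocyte and monocyte gates, 1 point per mouse and a bar at each strain mean. Lcn2 is high in the 3 NZB mice and near the B gate level in the other strains, while Ngp stays low in every strain.

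Azurophil genes reached further into other cells than the specific genes. Progenitor cells (Kit or Cd34, no Ms4a3) held 956 to 2333 CPM of Mpo, 415 to 1227 of Prtn3 and 268 to 898 of Ctsg, but 0 to 95.03 of Elane. The ratio of Elane to Mpo UMIs was 0.0293 there and 1.64 in precursor cells, and 7.38% of progenitor cells held Elane against 77.1% for Mpo. Basophil cells (Prss34, Mcpt8, Cpa3, Fcer1a) held 1969 to 3026 CPM of Ctsg, a gene found in 76.3% of them, while 88.4% of their Elane UMIs came from 5 of 152 cells. Dividing monocytes held 1961 to 3558 CPM of Mpo.

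In B cells, whose S100a8 and S100a9 UMIs set the scale, the specific members were at 0.881 to 0.934 times what free RNA would give and the azurophil members at 14.8 to 17.2 times. Of 7405 B cells 20 held 10 or more azurophil UMIs, and 5 cells held 41.5% of all of them.

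By the profile over 13 gates, the genes outside the members and the gate lists most like the azurophil mean were S100a1, Ap3s1, Gstm1, Gatm and Igfbp4 (Pearson r 0.936 to 0.890). Those most like the specific mean were Inhba, Mapk13, Olfm4, Lrg1 and 4930438A08Rik (0.993 to 0.985), and like Mmp8 and Mmp9 Pilra, Slfn4, Crispld2, C5ar1 and Adam8 (0.982 to 0.968). The points share 9 mice, and the measure ranks 3257 genes with at least 100 CPM in a gate.

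A list of 46 further granule genes (45 in the annotation), 2 of which are also among the like genes, (cargo, protease activation, sorting, transcription factors) was counted beside the members in the same edgeR fits. From precursor to dividing cells 26 of 38 tested rose and 10 fell, from dividing to immature 24 rose and 6 fell, and from immature to mature 20 rose and 11 fell. The shares over all genes at these steps were 38.2% up and 34.7% down, 31.2% and 34.6%, and 19.9% and 22.9%. Lyz2 (lysozyme) rose by 6.87 and Cybb (the oxidase subunit) by 5.72 at the first step, while Myb, a factor of early blood cells, fell by 2.37. Orm1 fell by 2.67 and Timp2, an inhibitor of metalloproteinases, rose by 1.81 at the last. Between NZB and NZW 1 of 26 tested was higher and 1 lower in precursor cells, 6 and 3 of 39 in dividing, 3 and 3 of 35 in immature, and 5 and 3 of 33 in mature cells, where 4.73% of all tests were higher and 4.39% lower. Hp (haptoglobin) was higher in NZB by 0.61, 0.88 and 0.96 along the last 3 gates and Olfm4, a specific granule protein, by 1.29, 1.55 and 1.65, with 1484, 1490 and 1433 CPM against 723, 361 and 469 in mature cells. Stxbp2, needed for granule release, was lower by 0.84, 0.87 and 1.11. In the interaction test of mature minus precursor cells 4 of 39 were higher in NZB against NZW and 0 lower (1.93% of all genes called in either direction), Hp with 1.05, Cebpb 0.93, Cyba 0.71 and Serpinb1a 0.69.

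The share of the marrow in each neutrophil gate did not pass between strains (exact permutation over 280 partitions, adjusted p 0.361 to 0.596, smallest possible raw p 0.00357). The mature gate averaged 10.7% of kept cells for NZB, 5.95% for NZW and 7.75% for NZBWF1, and ran from 2.68% to 16.2% over the 9 mice. Among mice of the same replicate number it was highest in NZB in 3 of 3, with no test. Within each strain it was highest in the first mouse (16.2%, 8.82% and 13.3% in NZB, NZW and NZBWF1). It was lowest in the second mouse (5.76%, 2.68% and 3.91%), and the permutation did not use the number. A p that misses the threshold does not show equal shares. The shares count only mature cells over the main limits, 2763 cells against 10131 at 500 UMIs and 250 genes.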

How the data were processed

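Femur marrow cells of 9 mice were profiled by droplet 3' sequencing, 1 library per mouse. Per the submitters' processing notes the tools were Cell Ranger 3.1.0 and bcl2fastq 2.20, with build mm10. The authors deposited UMI counts per gene and barcode, merged over the libraries with a depth setting that no source used here states. Barcodes were assigned to mice by the library number they carry, and 0 columns of values were left unused for want of a sample.

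Of 68444 barcodes, 39051 had at least 1000 UMIs, 500 genes and at most 10% mitochondrial UMIs. Gates were set by marker UMIs (S100 share 1.6%, 3 UMIs of Ms4a3, 2 of immature genes, 5 of division genes or at most 1, under 10 or at least 20 of mature genes). No doublet caller was run. Cells with 3 or more UMIs of another lineage (5 for erythroid and plasma genes) were left out, which removed 19.9% of the 15790 S100-rich cells (11.1% to 29.5% per mouse), and dropping the top 5% of cells by UMIs was an alternative. These limits cut more from the precursor gate, which held 586 cells with them and 1365 with mixed cells kept. Counts were summed per gate and mouse (107810 to 2750314 UMIs in neutrophil gates), leaving out sums of under 10 cells.

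Strains were compared with edgeR 4.0.16 in R 4.3.3 (TMM, filterByExpr, robust quasi-likelihood test, Benjamini-Hochberg over all genes, threshold 0.05), each gate on its own, and gates in a joint fit with the mouse as a block. DESeq2 1.42.0 was an alternative. Intervals are 1.96 SE. Levels are CPM, and free RNA was read from barcodes under 100 UMIs. The fits were tested on simulated data. Mice are separate animals.

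The members and all lists were chosen with earlier results of these data known. All 10 members entered every comparison in which they passed the filter on low counts. The text names the called members and some of the others, so members without a value were not called. Ctsg was called between strains in no gate. At most 6 called genes of the further granule list are named by smallest p, and the 5 genes most like each group. Monocyte fits, the comparison of falls, fits without scaling factors, Camp by S100 range and the test of mature against immature cells were added after values were seen. Promoters are from RefSeq (GRCm38.p6), gene positions from GENCODE.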

Additional observations from a re-analysis of the deposited data

Results flagged for a closer look

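Camp, the cathelicidin, was the only member called in a test of whether the strain difference changed with stage (edgeR interaction, mature minus precursor cells). The other members had a larger SE in that test, so a missing call does not show that they kept their difference. The value was -2.22 on the log2 scale for NZB against NZW and -2.0 for NZBWF1 against NZW. In precursor cells the 3 NZW mice were at 69.6 to 206 CPM and the 6 others at 320 to 935 CPM, and in mature cells NZW was at 37765 to 38551 CPM and NZB at 27804 to 30225. Neither end passed alone for NZB against NZW, with 2.04 in precursor cells (edgeR adjusted p 0.083) and -0.21 in mature cells (adjusted p 0.114). The interaction took a single spread per gene over all neutrophil gates, and thus does not measure the spread of the precursor mice alone. In the 389 of 586 precursor cells with an S100 share of 0 to 0.2% the strains overlapped, NZW lay apart from the others at 0.2 to 0.8%, from 5 to 28 cells per mouse, and NZB and NZW overlapped again at 0.8 to 1.6%. The contrasts share the NZW mice. Both calls were lost when cells with markers of another lineage were kept in the gates (adjusted p 0.0864 and 0.146), and that of NZBWF1 against NZW at 2000 UMIs and 1000 genes (0.163). The part of stage, depth and other cells in this result was not tested.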

How the results depend on the processing

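Of 63 single results 25 kept call and direction in every alternative. Of 1199 recomputed values 1106 stayed on the same side, 79 lost the call and 14 turned round, and these 14 came from limits of 2000 UMIs and 1000 genes, where 151 immature and 117 mature cells remained. There, from dividing to immature cells, Mpo read 1.94, Elane 1.42, Prtn3 1.46, Ctsg 1.85, Ltf -0.48, Ngp -0.82 and Lcn2 -0.46. From immature to mature cells Ltf read 0.60, Ngp 0.19 and Lcn2 0.52. In immature cells NZB minus NZW was -0.42 for Lcn2, -0.44 for Ngp and -1.05 for Mmp9, and NZBWF1 minus NZB was 0.86 for Lcn2.

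The 12 calls of NZB against NZW became 5 at that limit and 11 to 13 without 1 mouse. The 2 calls of NZBWF1 against NZW became 1 at 500 UMIs and 250 genes, 5 at 2000 UMIs and 1000 genes, 1 with stricter gates, 0 with mixed cells kept, 4 after thinning, 0 with at least 10 counts in every mouse and 1 to 3 without 1 mouse. The 2 calls against the mean of the parents became 0, 5, 1 and 0 under the first 4 of these, 0 with at least 10 counts in every mouse and 1 to 3 without 1 mouse. The 2 interaction calls became 6 at 2000 UMIs and 1000 genes and 0 with mixed cells kept, and stayed at 2 without 1 mouse. Of 13 gates, 3 differed in share between strains (dividing monocyte, dendritic and plasma), none of them a neutrophil gate. The count was 0 at 2000 UMIs and 1000 genes and 1 to 6 without 1 mouse. With neutrophil cells as the total it was 0. The neutrophil gates had no call with kept cells as the total either, so that 0 cannot be read as a lost result. The causes were not tested.

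Same-numbered mice correlated by -0.098 to 0.265 in their deviations from the strain means. The correlation was over 0.1 in 0, 0, 1 and 6 of 9 pairs in precursor, dividing, immature and mature cells, and the labels name nothing that a number shares, so the numbers were not taken to pair mice. Depth did follow the number. Median UMIs per dividing cell in NZB, NZW and NZBWF1 were 5495, 4778.5 and 5232 for number 1. They were 3372, 3368 and 3533 for number 2 and 3881, 3511 and 4212 for number 3. The tests without a block did not use this. With the replicate block the 2 calls against the mean of the parents became 1 (Prtn3 in mature cells was lost, adjusted p 0.0543), and the other counts stayed within 1.5 times. Depth limits the azurophil members in mature cells, where 7 to 408 UMIs were found per mouse, and Ltf, Mmp8 and Mmp9 in precursor cells, which were too low to test.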
